A study of Homo sapiens with 25 samples.

Results

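The broad domains of trimethylated histone H3 lysine 9 (H3K9me3) in PML knockdown cells were set against those in control cells. The members were all domains of the deposited H3K9me3 lists, 281 in the knockdown list, against 430 in the control list. They came from 4 of the 25 libraries and made up 711 of the 1921 domains in the domain lists used here. The cells were MDA-MB-231, a human triple-negative breast cancer line, and the study mapped PML, LMNB1 and histone marks in them by chromatin immunoprecipitation and sequencing. In the knockdown group PML had been silenced with a lentiviral short hairpin RNA, and the labels give neither the hairpin nor the vector of the control group. Each group had 2 H3K9me3 libraries made with the same antibody from cells fixed with disuccinimidyl glutarate and formaldehyde. Lists of LMNB1 domains and of H3K4me3 and H3K27ac peaks came from 2 libraries per condition, and the PML domain list from 3 libraries whose labels name no condition. The files hold 1 H3K9me3 list per condition, so no difference below has a replicate check, no test was possible, and the read depth is unknown. Sequence outside a list did not pass the authors' threshold in that condition, and this does not show that the mark was absent.

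H3K9me3 is the mark of constitutive heterochromatin. It is written by the SUV39H and SETDB1 enzymes and read by HP1 proteins, and it is known to cover pericentromeric repeats, clusters of zinc finger genes and many tissue-specific gene clusters, much of it at the nuclear lamina. PML is the scaffold of PML nuclear bodies, which also hold the DAXX and ATRX chaperones that deposit histone H3.3 in heterochromatin. Olfactory receptor genes, which are used in sensory neurons of the nose, and keratin genes, which encode the intermediate filaments of epithelia, lie in clusters along the chromosomes.

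The cells were checked against breast cell markers by the presence of H3K4me3 promoter peaks. All 7 basal and mesenchymal markers (VIM, CD44, CAV1, CAV2, EGFR, MET and AXL) had a peak in each of the lists. Of 7 luminal markers, 5 had a peak in the knockdown list, where GATA3 and TFF1 had none, and 4 in the control list, where PGR also had none. PML itself (chromosome 15, 73994673 to 74047827, hg38) started outside the H3K9me3 domains of both lists and had an H3K4me3 promoter peak of fold enrichment 58.3 in the knockdown list, against 21.9 in the control list. A hairpin acts on the transcript, so this peak does not measure the knockdown, and a fold from the knockdown list cannot be set against one from the control list on the same scale.

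Sequence was called kept where it lay in domains of both lists, lost where it lay in the control list only and gained where it lay in the knockdown list only. The promoters that follow show the DNA at gene families that were lost or kept and at a gene in gained sequence. Each is the 250 bases before the start of the gene in RefSeq (GRCh38.p14), 5' to 3' on the strand of the gene, chosen because its GC content was the closest to the median of its set. The letters CG are in capitals, since the promoters differ most in how many they hold. OR4B1 (chr11:48216560-48216809, plus strand) stands for the lost olfactory receptors, ZNF44 (chr19:12294884-12295133, minus strand) for the kept zinc finger genes, KRT3 (chr12:52796118-52796367, minus strand) for the kept keratins and ACTR3C (chr7:150323546-150323795, minus strand) for all genes in gained sequence.
OR4B1: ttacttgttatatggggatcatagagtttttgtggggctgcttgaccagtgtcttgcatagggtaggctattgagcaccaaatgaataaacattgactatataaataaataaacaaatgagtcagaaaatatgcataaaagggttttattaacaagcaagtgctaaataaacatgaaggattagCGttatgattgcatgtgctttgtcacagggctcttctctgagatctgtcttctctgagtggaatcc
ZNF44: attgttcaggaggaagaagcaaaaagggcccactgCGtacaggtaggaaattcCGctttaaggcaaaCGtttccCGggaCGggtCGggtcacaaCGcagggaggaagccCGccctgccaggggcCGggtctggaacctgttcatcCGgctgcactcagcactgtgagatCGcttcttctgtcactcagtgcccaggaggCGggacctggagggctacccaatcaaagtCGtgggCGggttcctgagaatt
KRT3: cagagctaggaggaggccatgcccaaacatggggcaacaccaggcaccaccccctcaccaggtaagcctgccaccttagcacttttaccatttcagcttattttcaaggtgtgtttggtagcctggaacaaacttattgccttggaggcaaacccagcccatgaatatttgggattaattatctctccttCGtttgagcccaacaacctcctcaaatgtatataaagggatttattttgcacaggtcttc
ACTR3C: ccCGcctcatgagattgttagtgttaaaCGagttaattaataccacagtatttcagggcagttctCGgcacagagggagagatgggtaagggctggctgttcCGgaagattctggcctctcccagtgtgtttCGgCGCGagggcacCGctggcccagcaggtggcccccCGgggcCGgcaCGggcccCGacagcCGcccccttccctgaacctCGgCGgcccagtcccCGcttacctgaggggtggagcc

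The OR4B1 promoter was 36.8% GC with 1 CG, and that of KRT3 was 46.8% GC with 1 CG. The ZNF44 promoter was 58.8% GC with 14 CG and that of ACTR3C was 63.6% GC with 16 CG. Promoter sequences were matched by symbol, chromosome and strand for 15320 of 19970 protein-coding genes, and all 15320 were identical to the reference genome. Of these, 96.9% held at least 1 CG and 69.3% held at least 10; CG reads the same on both strands. Promoters of lost genes had a median GC of 48.8% and a median of 4 CG (n = 751), those of kept genes 56.8% and 8 CG (n = 794) and those of gained genes 63.6% and 16 CG (n = 505). Gained promoters were thus close to those outside both lists, which had medians of 63.2% and 18 CG. Within a family the class made little difference: lost and kept olfactory receptor promoters had median GC of 36.8% (n = 171) and 37.4% (n = 44), and lost and kept ZNF promoters 57.2% (n = 61) and 58.8% (n = 144).

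The loss of H3K9me3 took the form of whole domains dropping out of the list rather than of domains shrinking. Knockdown domains covered 361 Mb, 12.4% of the gap-free genome, and control domains covered 629 Mb, 21.6%. Of 430 control domains, 200 (46.5%) met no domain of the knockdown list. No control domain was kept over more than 0 and less than 10% of its length, 23 were kept over 10 to under 50%, 37 over 50 to under 90%, 92 over 90 to under 100% and 78 over their full length. Most domains were therefore either absent from the knockdown list or almost complete in it, with 60 of 430 in between. Domains that dropped out whole carried 278.0 of the 348.0 Mb lost, 79.9%. Edges carried 62.2 Mb, 17.9%, and gaps opened inside domains 7.77 Mb, 2.23%. The LMNB1 lists, measured the same way, had 60 of 410 control domains without overlap in the knockdown list, and whole domains carried 44.2% of their 96.2 Mb of lost length. The difference between H3K9me3 and LMNB1 was not tested.

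**Figure D1:**
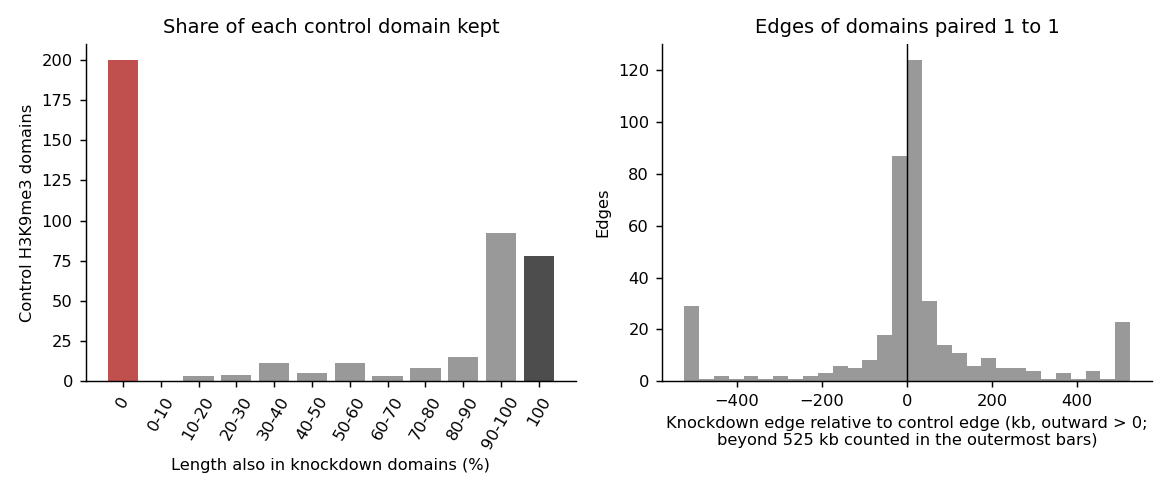
Left, number of control H3K9me3 domains (y axis) by the percentage of their length that also lay in knockdown domains (x axis), and right, number of domain edges (y axis) by the distance in kb of the knockdown edge from the control edge in 205 domains paired 1 to 1 (x axis, outward positive). 200 domains stand at 0 and 170 at 90% or more, and 213 of 410 edges lie within 35 kb of each other.

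Where a domain stayed, its edges were divided between those that stayed close and those that lay farther off. There were 205 control domains that each met a single knockdown domain and no other, while 9 control domains were split in the knockdown list and 7 knockdown domains joined several control domains. Across the 410 edges of the pairs, 213 (52.0%) lay within 35 kb of each other, which is the grid step of the knockdown list; the control list has a step of 23 kb. Beyond 35 kb, 116 edges lay outward and 81 inward in the knockdown list, and beyond 100 kb 74 lay outward and 55 inward. The median shift was 6.5 kb outward, less than either grid step. Median lengths of the paired domains were 1085 kb in the knockdown list and 1104 kb in the control list, with 117 pairs longer and 88 shorter in the knockdown list. The authors' domain scores, whose unit is not stated, had medians of 17.2 in the knockdown and 32.3 in the control list over these pairs. Their Spearman correlation was 0.58 across the 205 pairs, which share libraries. Whether scores of the knockdown and the control list can be compared directly is not known. Among the lost edge length, 63 of 183 runs over 100 kb held 59.4 of the 62.2 Mb. One of these runs was 6580 kb long and held CDH8 and CDH11 on chromosome 16.

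The domains that dropped out were poor in GC and had low scores for their length, while their length was close to that of domains kept almost complete. Domains lost whole had a median GC of 38.6% (34.5 to 47.5%), against 44.1% (40.2 to 56.8%) in the 170 domains kept over at least 90% of their length. Their median score per Mb was 24.9 against 35.3, and their median length was 966 kb against 943 kb. The 60 domains kept over more than 0 and under 90% of their length were longer, with a median of 1828.5 kb. By quintiles of GC content, from low to high, 83, 72, 28, 10 and 7 of 86 control domains were lost whole, and 1.30%, 14.7%, 58.8%, 90.2% and 92.9% of the control length was kept. By quintiles of score per Mb, from low to high, the numbers lost whole were 59, 62, 44, 25 and 10 of 86, and the kept lengths 20.1%, 18.2%, 43.6%, 73.0% and 92.3%. By quintiles of length, from short to long, 41, 43, 44, 33 and 39 of 86 were lost whole. The steepest of these gradients was the one by GC content.

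High GC content and a high score per Mb tended to occur in the same domains, so they were also crossed in terciles. In the lowest GC tercile, 82 of 86 domains with a low score per Mb were lost whole, 47 of 52 with a middle score and all 5 with a high score. In the highest GC tercile, none of 17 with a low score per Mb was lost whole, 2 of 36 with a middle score and 10 of 91 with a high score. In the middle GC tercile the score made a visible difference, with 17 of 40, 28 of 55 and 9 of 48 lost whole from low to high score. GC content also bears on how efficiently DNA is amplified and sequenced. Neither its part in the result nor that of a weaker enrichment in the knockdown libraries was tested, and with 1 list per condition these cannot be told apart from lower H3K9me3 itself.

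**Figure D2:**
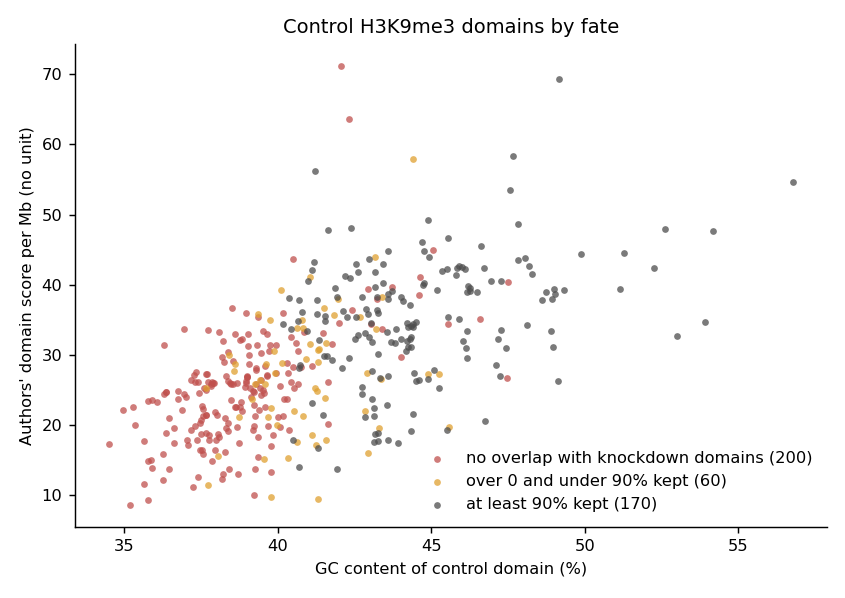
Each point is 1 of the 430 control H3K9me3 domains, placed by GC content in percent (x axis) and by the authors' score per Mb, which has no stated unit (y axis), and coloured by its fate. The 200 domains without overlap in the knockdown list have a median GC of 38.6%, and the 170 kept over at least 90% have 44.1%.

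A few domains ran against these gradients. Of the 86 domains with the highest score per Mb, 10 were lost whole. They held the PRAMEF genes of chromosome 1 (12627001 to 12949000), CCL5 and its chemokine neighbours on chromosome 17 (35880001 to 36248000), OR7C1 and OR7A5 on chromosome 19 (14582001 to 15088000), ZNF302 and ZNF181 on chromosome 19 (34500001 to 34983000) and NLRP9 and NLRP4 on chromosome 19 (55706001 to 56074000). The others lay near gaps in the assembly or in gene-poor sequence of chromosomes 1, 14, 16 and 17, with H3-7, OR11H12 and KCNJ18 as their genes. All 5 control domains shorter than the shortest knockdown domain (385 kb) were among these 10. In the lowest GC quintile, only 3 of 86 domains kept any length. They held IL1RL1 and IL18R1 on chromosome 2 (32.4% kept), OR4B1 and its neighbours on chromosome 11 (28.0% kept) and CDH8 and CDH11 on chromosome 16 (12.8% kept). OR4B1, CDH8 and CDH11 themselves started in lost sequence. The exceptional domains were picked out after their values were seen.

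Gained sequence was more GC-rich than kept sequence and held a higher density of genes. It came to 80.6 Mb, 22.3% of the knockdown domain length. Of 281 knockdown domains, 50 (17.8%) had no control counterpart, and new domains carried 49.6% of the gained length, while edges carried 46.7%. New domains were shorter and of lower score than the knockdown domains that met a control domain, with median lengths of 700 and 1120 kb and median scores of 11.1 and 17.3. Their median GC was 46.7%, against 43.7% in the knockdown domains that met a control domain. Gained sequence as a whole was 46.7% GC with 8.44 gene starts per Mb, kept sequence 43.6% GC with 3.70, and lost sequence 38.2% GC with 2.76. The gap-free genome had 40.9% GC and 6.86 gene starts per Mb. CG dinucleotides numbered 13.7 per kb in gained, 10.7 in kept and 6.88 in lost sequence, against 10.0 in the genome.

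More of the lost than of the kept sequence lay in LMNB1 domains. Of the lost length, 82.8% lay in knockdown LMNB1 domains and 88.0% in control LMNB1 domains. For kept sequence the shares were 55.9% in knockdown and 61.9% in control LMNB1 domains, and for gained sequence 1.80% and 1.32%. Where H3K9me3 was lost, LMNB1 mostly was not: of the lost sequence, 284.8 Mb (81.9%) lay in the LMNB1 domains of both lists, and 93.0% of its control LMNB1 length was also in the knockdown LMNB1 list. In kept sequence that share was 88.6%, and over all control LMNB1 domains it was 90.4%. The share in lost sequence was thus close to that of LMNB1 domains as a whole. The PML domain list covered 81.6% of lost, 47.2% of kept and 0.938% of gained sequence. Of the gap-free genome, 32.5% lay in knockdown LMNB1 domains, 34.3% in control LMNB1 domains and 33.3% in PML domains.

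Chromosomes differed widely in how much of their H3K9me3 they kept. On 22 of 23 chromosomes the knockdown domains covered less than the control domains, and chromosome 22 was the exception with 10.43 Mb in the knockdown and 8.648 Mb in the control list. The kept share of control length ran from 14.8% on chromosome 21 to 99.2% on chromosome 22, with a median of 45.4% over 22 autosomes; this spread runs along the genome and is not an error. Only 6 chromosomes kept over 50%. Chromosome 19, which carries the large zinc finger clusters, kept 81.4%, and chromosome 11, which carries the most olfactory receptor genes, kept 26.3%. On chromosome X, 5.075 Mb of knockdown and 5.75 Mb of control domain shared 1.186 Mb, so that 76.6% of its knockdown length was gained. Across the autosomes the kept share went with the GC content of the chromosome, with a Spearman correlation of 0.67 over 22 chromosomes that share libraries.

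**Figure D3:**
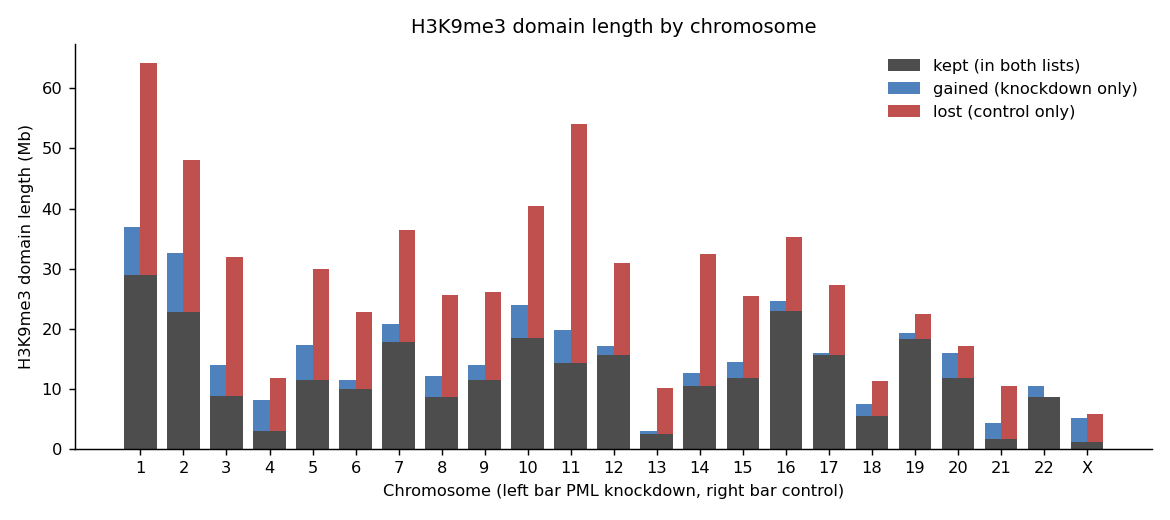
Length of H3K9me3 domains in Mb (y axis) on each chromosome (x axis), with the knockdown list as the left and the control list as the right bar of each pair, split into kept, gained and lost sequence. The knockdown bar is the lower one on 22 of 23 chromosomes, and chromosome 22 is the exception.

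Position along the chromosome followed the same divide, with H3K9me3 kept near chromosome ends and lost in the interior. In the outermost 5 Mb, knockdown domains covered 36.0% of the sequence and control domains 31.5%, and 84.8% of the control length was kept. From 5 to 10 Mb they covered 31.2% and 32.5%, with 73.7% kept, and from 10 to 20 Mb 13.7% and 22.4%, with 48.7% kept. Farther in, from 20 to 40 Mb, 40 to 60 Mb and beyond 60 Mb, the kept share was 41.4%, 28.0% and 23.8%. The outermost 5 Mb and the next 5 Mb held 23.4% and 18.8% of the gained length, and 2.79% and 5.12% of the lost length, in 6.96% and 7.16% of the genome. The kept share was higher within 10 Mb of an end than farther in on 20 of 23 chromosomes, with chromosomes 3, 19 and 20 as the exceptions. Chromosome 3 kept 8.15% near its ends and 33.3% farther in, where its lost end domain (23001 to 4347000) held CNTN4 and CNTN6.

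The ends of chromosomes are also rich in GC, so the shares were given within terciles of the regional GC content. In the low tercile, 22.6% was kept within 10 Mb of an end and 2.43% farther in. In the middle tercile the shares were 70.4% and 35.8%, and in the high tercile 94.2% and 84.5%. The direction was thus the same in all 3 terciles. Distances were measured from the ends of the assembled chromosomes, and distance from centromeres was not analysed here.

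The longest lost stretches, of 7.31, 6.92, 6.67, 6.58 and 6.05 Mb, lay on chromosomes 2, 21, 11, 16 and 13 and held LRRTM4, NCAM2, LRRC4C, CDH8 with CDH11, and PCDH8 with OLFM4. The one on chromosome 16 was part of a domain of which 12.8% was kept, and the others were domains lost whole. The next 5 by length were also domains lost whole. On chromosome 10, 5.50 Mb (104351001 to 109848000) around SORCS3 and SORCS1, which encode sorting receptors of the brain, was lost. On chromosome 11, 5.45 Mb (20516001 to 25967000) held SLC6A5, a glycine transporter, NELL1 and ANO5. On chromosome 14, 5.45 Mb (39445001 to 44896000) held LRFN5, a synaptic adhesion protein, and FSCB. On chromosome 7, 5.01 Mb (48139001 to 53153000) held ABCA13 and ZPBP, and on chromosome 1, 4.39 Mb (103753001 to 108146000) held PRMT6, NTNG1 and VAV3. The last 5 stretches were 35.3% to 39.4% GC. Between 80.3% and 100% of their length remained in the knockdown LMNB1 domains.

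The long kept stretches had higher GC content, from 41.1% to 44.2%. The longest, 6.56 Mb on chromosome 12 (125143001 to 131705000), held TMEM132B and TMEM132C. The next were 5.11 Mb on chromosome 2 (3611001 to 8717000) with SOX11, a neural transcription factor, and CMPK2, and 5.00 Mb on chromosome 7 (67344001 to 72345000) with AUTS2 and GALNT17. They were followed by 4.58 Mb on chromosome 9 with GAS1 and DAPK1, and 4.55 Mb on chromosome 19 (19670001 to 24219000) with 39 genes, the first by coordinate being ZNF14, ZNF506, ZNF253 and ZNF93. The domain around ZNF14 had the highest score of the control list, 255.8, was kept over 99.9% of its length, and scored 84.4 in the knockdown list. At 41.2% GC it was among the kept domains of lowest GC content.

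Gained stretches were shorter and denser in genes. Ranks 6 to 10 by length lay on chromosome X around IDS (1.22 Mb, 149385001 to 150605000) and around MAGEA3 (1.19 Mb, 152460001 to 153650000), on chromosome 22 around PNPLA3 (1.196 Mb, 43884001 to 45080000), on chromosome 2 around NDUFA10 (1.133 Mb, 239982001 to 241115000) and on chromosome 15 around TLE3 (1.12 Mb, 69510001 to 70630000). None of these 5 overlapped a PML or LMNB1 domain. The MAGEA3 stretch held 27 gene starts, among them members of the MAGE family of cancer-testis antigens, and the TLE3 stretch held 1, the gene of a transcriptional corepressor.

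Among protein-coding genes, 1718 started in knockdown domains and 1997 in control domains. Of the 1997, 959 (48%) started in lost sequence, and of the 17973 genes outside the control domains, 680 (3.78%) started in gained sequence. With only the control domains of highest score, down to the knockdown length, 301 genes were lost and 1177 gained. These shares are the background for the gene groups below, and no group was tested against them. They are counts of gene starts in clusters, so that members of a cluster are not independent, and a start inside a domain says nothing of how much the gene is used.

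Most olfactory receptors in control domains were outside the knockdown domains. Of 415 genes, 60 started in knockdown and 278 in control domains, and 221 of the 278 (79.5%) were lost. They occupied 18 control domains, of which 13, with 206 members, dropped out whole. On chromosome 11, 125 of 128 members in control domains were lost, and on chromosomes 6, 12, 14 and 17 all 14, 15, 24 and 12 were. Of the 57 kept genes, 39 lay on chromosome 1 and 13 on chromosome 19. The chromosome 1 cluster at the end of the long arm (247457001 to 248814000), the largest in the control list with 45 members and OR11L1 among them, was kept over 82.0% of its length although its GC content was 38.6%. A second cluster on that chromosome (158125001 to 159781000), of 38.4% GC and 17 members, dropped out whole. On chromosome 19 the domain with OR10H1 was kept over 98.1% and had 46.5% GC, and the one with OR7G1 was kept over 99.1% and had 44.9% GC.

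Zinc finger genes named ZNF, many of which encode repressors of transposable elements, mostly stayed in H3K9me3 domains. Of 509, 189 started in knockdown and 234 in control domains, with 165 kept, 69 lost (29.5% of 234, against 48% of all genes) and 24 gained. They lay in 26 control domains, of which 14, with 151 members, were kept over at least 90%, and 6, with 30 members, dropped out whole. On chromosome 19, 143 were kept and 62 lost. The losses there came mainly from the chromosome 19 domain at 56189001 to 58305000, with 43 members, which was kept over 50.6% of its length, and from the one at 43815001 to 44551000, with 20 members, which dropped out whole and had 40.7% GC. Of the 24 gained genes, 6 lay on chromosome 1, 6 on chromosome 7, including ZNF107, and 5, including ZNF141, on chromosome 4.

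Keratins, late cornified envelope genes and serpins lost no member. All 41 keratins in control domains were kept, in clusters on chromosomes 12 (21 genes) and 17 (20 genes), and KRT7, KRT80, KRT81 and KRT86 were gained at the edge of the chromosome 12 cluster, which gave 45 of 55 in the knockdown list. The domain around KRT1 scored 19.95 in the knockdown list over 700 kb and 22.9 in the control list over 552 kb. All 19 late cornified envelope genes, which encode proteins of the outer skin layer, were kept in a single domain of chromosome 1 that held LCE1A and scored 25.1 in the knockdown and 37.7 in the control list. The 10 serpins in control domains, all of the SERPINA cluster on chromosome 14 that encodes inhibitors such as alpha-1-antitrypsin (SERPINA1), were also kept. Across all genes in control domains 48% were lost, and each of these 3 families rests on 1 or 2 clusters.

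Keratin-associated proteins, which cross-link keratin in hair, split by chromosome. The family had 55 of 94 genes in knockdown and 67 in control domains. All 34 on chromosome 17 were kept, including KRTAP1-1, in a domain of 43.8% GC. All 33 in the chromosome 21 domain with KRTAP13-1 (29578001 to 31096000), of 37.5% GC, were lost. On the same chromosome 21, 16 members of the KRTAP10 and KRTAP12 groups near the chromosome end were gained with a new domain (44345001 to 44765000) of 51.5% GC, and 5 members of the KRTAP5 group were gained on chromosome 11. The new chromosome 21 domain scored 9.16, near the lowest knockdown score of 9.15. By these calls, chromosome 21 both lost and gained keratin-associated clusters.

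Enzyme, adhesion and transport families showed the same kind of split between clusters. Among cytochrome P450 genes, which oxidise drugs, fatty acids and steroids, all 6 CYP4F genes on chromosome 19 were kept, in a domain of 46.5% GC that held CYP4F2. Of the 12 P450 genes in control domains, 6 (50%) were lost, near the 48% of all genes, and CYP2J2 and CYP7B1 were among them. CYP11B1 and CYP11B2 were gained. Of 19 carcinoembryonic and pregnancy-specific glycoprotein genes in control domains, 12 were kept and 7, including CEACAM5 and CEACAM6, were lost, while CEACAM18 was gained. Solute carriers had 14 kept, 14 lost and 11 gained members, with 9 of the 14 lost ones on chromosome 11, among them SLC17A6 and SLC22A10. Potassium channels had 9 kept, 10 lost and 8 gained members; KCNA2, KCNA3 and KCNA10 on chromosome 1 were lost, and KCNJ6 and KCNJ15 were gained together on chromosome 21. The lost shares of 50% and 52.6% for the last 2 families were near the 48% of all genes. Taste receptors had 3 kept, 4 lost and 2 gained members and collagens 2, 3 and 2. Their lost shares were 57.1% of 7 and 60% of 5 genes in control domains.

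No HOX, clustered protocadherin, UDP glucuronosyltransferase or type I interferon gene started in a domain of either list. Neither did any gene of the housekeeping list or of the list of PML nuclear body components.

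**Figure D4:**
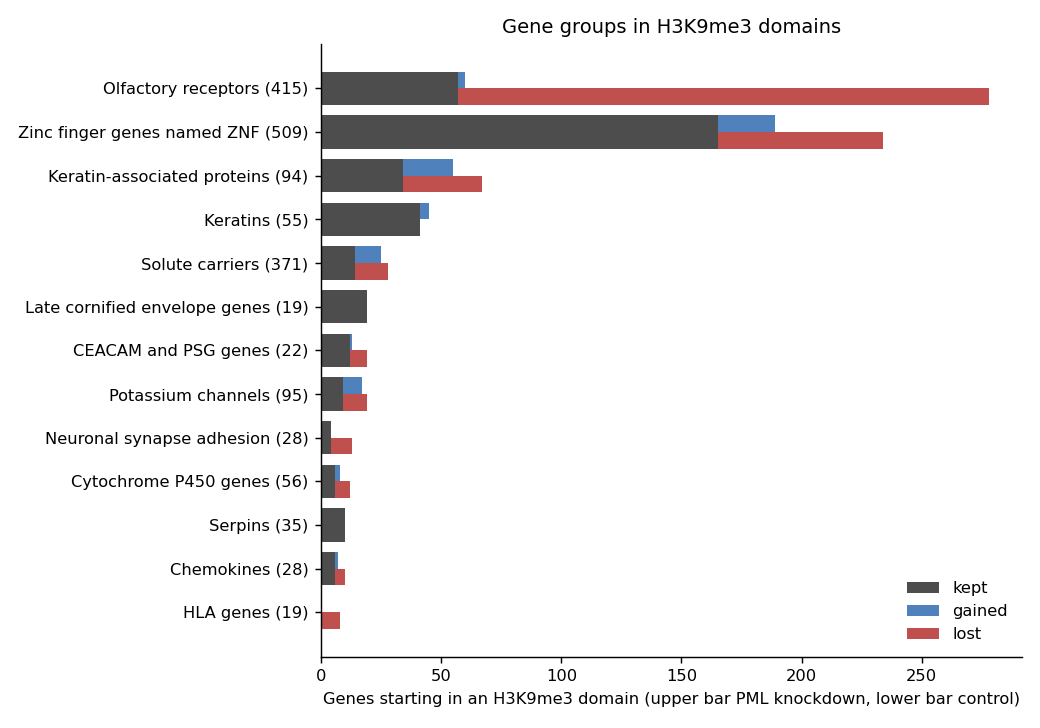
Number of genes starting in H3K9me3 domains (x axis) for each family or list (y axis, its size in parentheses), with the knockdown list as the upper bar (kept and gained) and the control list as the lower bar (kept and lost). Olfactory receptors lost 221 of 278, and keratins, late cornified envelope genes and serpins lost none.

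Immune genes fell on both sides. Of 15 genes in the list for MHC class II, which presents antigen to helper T cells, 8 started in control domains, all in a single domain on chromosome 6 (32338001 to 32821000) of score 15.7 and 40.4% GC, near the lowest control score of 14.3. It had no counterpart in the knockdown list, so that all 8 members in it, including HLA-DRA, HLA-DQA1 and HLA-DOB, were lost together. The start of HLA-DOB was 3.998 kb from the edge of that domain, less than a grid step, so its call is uncertain. Among chemokines, which direct the migration of leukocytes, CCL2, CCL7, CCL8, CCL11 and CCL13 were kept in a chromosome 17 domain that scored 56.8 in the knockdown and 141.1 in the control list. CCL3, CCL4, CCL5 and CCL18 lay in the neighbouring control domain of score 15.1, which was lost whole. The start of CCL5 was 0.36 kb inside that domain, less than a grid step, so its call is uncertain. CXCL12, the ligand of CXCR4, was kept and CXCL14 was gained.

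Interferon-stimulated genes had 5 of 24 members in knockdown domains and 3 in control domains. RSAD2, an antiviral enzyme, was kept in the chromosome 2 domain with SOX11. IFI44 and IFI44L were lost with a control domain of 36.2% GC. MX1 and MX2, antiviral GTPases, were gained at the edge of a chromosome 21 domain, IFI27 at the edge of the SERPINA domain of chromosome 14, and ISG20 on chromosome 15. The H3K4me3 promoter folds at MX1 were 24.1 in the knockdown and 22.2 in the control list, so this promoter had an H3K4me3 peak in both lists. Its H3K27ac promoter peak was in the control list only, with a fold of 3.91. MX2 had an H3K27ac promoter peak in both lists, with folds of 2.93 in the knockdown and 4.75 in the control list.

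Among genes of neurons, of 28 synaptic adhesion genes, 4 started in knockdown and 13 in control domains. CNTNAP5, DSCAM, NCAM1 and NRXN3 were kept, and 9 (69.2% of 13) were lost, among them CNTN3, CNTN4, CNTN6, CNTNAP2, CNTNAP4 and LRRC4C. The NCAM1 domain was 43.1% GC and was kept over 99.5%, whereas the domain of its paralogue NCAM2 on chromosome 21 was 35.2% GC and had no knockdown counterpart. Of 31 glutamate and GABA receptor genes, 8 started in knockdown and 11 in control domains. Those kept included the glutamate receptor subunits GRIK3, GRIN2A and GRIN2B. GRIA1, GRIK1, GRIN3A, GRM5 and GRM7 were lost, and GRID1 and GRM4 were gained.

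Developmental transcription factors had 6 kept, 5 lost and 2 gained members of 30. SOX9, a regulator of cartilage and of many epithelia, was kept with 53.9% of its control domain and had H3K4me3 promoter folds of 42.0 in the knockdown and 25.7 in the control list. PAX7, SOX1, SOX11, TBX3 and TBX5 were also kept. FOXA1, OTX2, PAX1, SOX14 and TBX15 were lost, and FOXA2 and FOXF1 were gained. The start of FOXA1, a pioneer factor of luminal breast cells, was 13.2 kb from the edge of its lost domain, less than a grid step. That of TBX15 was 13.7 kb from the edge of its lost domain, also less than a grid step, so both calls are uncertain.

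Few genes linked to breast cancer spread or to the mesenchymal state started in a domain of either list. Of the 20 genes in a list of metastasis genes of MDA-MB-231, 2 started in knockdown and 2 in control domains. MMP2, a collagenase, was kept. Its start was 30.8 kb from the knockdown domain edge, less than the 35 kb grid step of that list, so its call is uncertain. TNC, a matrix glycoprotein, was lost from a control domain that was kept over 31.6% of its length. CXCR4, a chemokine receptor, was gained, 73.1 kb from the nearest domain edge. Of 15 genes of epithelial-mesenchymal transition, CDH11 was lost and FOXC2, SNAI2 and TWIST2, transcription factors of that transition, were gained. SNAI2 lay in a new domain of score 11.9, with an H3K4me3 promoter fold of 51.0 in the knockdown and 34.8 in the control list. TWIST2 lay in a domain of score 45.5 near the end of chromosome 2 and had no H3K4me3 promoter peak in either list.

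Few markers of breast cell types started in domains. Of 14 basal and mesenchymal genes, KRT5, KRT14 and KRT17 were kept, and LAMB3 and SNAI2 were gained. Of 20 luminal genes, KRT19 was kept and FOXA1 was lost. Of 20 matrix and integrin genes, TIMP3 was kept, THBS1 was lost and COL6A3 and LAMB3 were gained. The start of THBS1, which encodes thrombospondin, lay 1.92 kb inside the edge of its lost domain, less than a grid step, so its call is uncertain. The H3K4me3 promoter fold of THBS1 was 58.4 in the knockdown and 12.9 in the control list.

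Of 21 genes that write, read or erase H3K9 methylation, PRDM2 alone started in a domain. It was kept, 7.81 kb from the control edge, less than a grid step, so its call is uncertain. PRDM2 had H3K4me3 promoter folds of 14.1 in the knockdown and 12.7 in the control list. Of 15 genes of the nuclear lamina and envelope, LEMD2 alone was marked, in a new knockdown domain of 490 kb and score 9.69, near the lowest knockdown score of 9.15. WIZ, a zinc finger partner of the G9a and GLP methyltransferases that was not on the list, started in a gained edge on chromosome 19. This start was 6.04 kb from the control edge, less than a grid step, so its call is uncertain. WIZ had an H3K4me3 promoter peak of fold 8.83 in the knockdown list and none in the control list.

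Active marks were sparse in the control H3K9me3 domains, most so in the sequence that was lost, but not in gained sequence. Lost sequence held 2.10 H3K4me3 peaks per Mb in the knockdown list, against 1.55 in the control list, kept sequence 3.35 and 2.13, and gained sequence 14.7 and 9.60. Sequence outside both H3K9me3 lists held 11.3 in the knockdown list, against 9.22 in the control list. For H3K27ac, a mark of active promoters and enhancers, lost sequence held 4.10 in the knockdown and 4.003 in the control list, kept sequence 6.49 and 5.63, gained sequence 23.7 and 21.0, and sequence outside both 17.5 and 17.1. Gained H3K9me3 thus lay where active peaks were already dense in the control cells.

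Peaks of the knockdown lists that had no control counterpart made up a smaller share in lost than in kept or gained sequence, a difference that was not tested. The knockdown H3K4me3 list is the longer, with 27760 peaks against 22211 in the control list, and 26.8% of its peaks did not overlap a control peak; of the control peaks, 1.17% did not overlap a knockdown peak. The share of knockdown peaks without a control peak was 32.8% in lost, 40.1% in kept, 40.3% in gained sequence and 25.5% outside both lists. For H3K27ac, 15.5% of 43615 knockdown peaks and 8.41% of 42320 control peaks lay in 1 list only, and in lost sequence the knockdown share was 18.4%. With peak lists cut to equal length, the difference in density between the knockdown and control lists in lost sequence changed sign, to -0.0460 peaks per Mb for H3K4me3 and -0.0546 for H3K27ac. In kept and gained sequence the differences stayed positive under that setting, at 0.224 and 1.14 for H3K4me3 and 0.652 and 2.03 for H3K27ac.

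**Figure D5:**
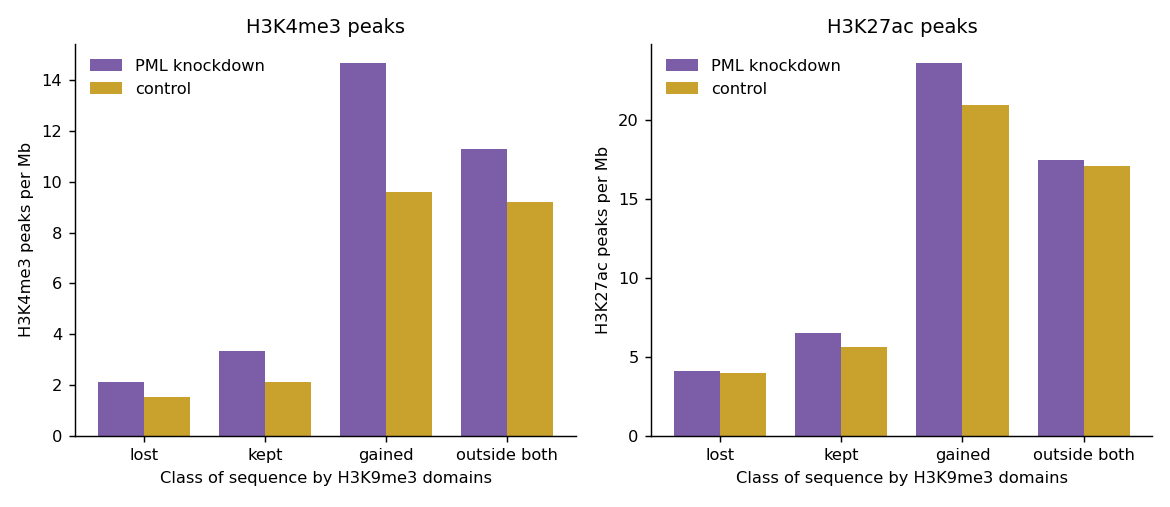
Peaks per Mb (y axes) of H3K4me3, left, and H3K27ac, right, in lost, kept and gained sequence and in sequence outside both H3K9me3 lists (x axes), with PML knockdown bars left of control bars. Both marks are the sparsest in lost and the densest in gained sequence, in both lists.

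Peaks were also counted domain by domain, in the full lists. The knockdown lists are the longer, and these counts were not repeated with lists of equal length. Domains with some length kept were also longer, with a median of 1127 kb against 966 kb in those lost whole. Of the 200 control domains lost whole, 92 held more H3K4me3 peaks in the knockdown list than in the control list, 6 held fewer and 102 held the same number. Of the 230 domains with some length kept, 152 held more, 6 fewer and 72 the same number. Domains without any H3K4me3 peak numbered 51 of the 200 in the knockdown list, against 74 in the control list. For H3K27ac, 64 of the domains lost whole held more peaks in the knockdown list, 45 held fewer and 91 the same number, and of the domains with some length kept, 123 held more, 35 fewer and 72 the same number. The difference between domains lost and domains kept was not tested.

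At promoters the changes were few in every class. In lost sequence 250 of 959 promoters had an H3K4me3 peak in the knockdown list, against 227 in the control list. In kept sequence the numbers were 301 and 282 of 1038, and in gained sequence 340 and 317 of 680. Promoters counted as having a peak in the knockdown list only numbered 25 in lost, 19 in kept and 22 in gained sequence. Those counted as having one in the control list only numbered 2, 1 and 1. These counts, and those that follow, leave out some promoters with a peak in 1 list and none in the other. For example, ABHD17C in gained sequence had an H3K27ac fold of 5.39 in the knockdown list and no control peak, but was not counted. The counts and shares are therefore minimum values. Across the genome, 357 promoters without a control peak (4.68%) were counted as knockdown-only. Likewise, 19 without a knockdown peak (0.262%) were counted as control-only. For H3K27ac, promoters counted as knockdown-only numbered 16 in lost, 22 in kept and 25 in gained sequence, and those counted as control-only 4, 2 and 8. Genome-wide the H3K27ac numbers were 647 (6.59%) and 133 (1.44%).

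The genes in lost sequence with the strongest H3K4me3 promoter peaks had them in both lists. The highest knockdown folds of H3K4me3 in lost sequence were those of ZWINT, a kinetochore protein (131.0 in the knockdown and 20.8 in the control list), of COX11 and STXBP4, which share a promoter (122.4 and 47.0), of COX10, an enzyme of haem A synthesis (119.7 and 55.2), and of PRKAB1, a subunit of AMP-activated kinase (116.6 and 34.8). In kept sequence they were those of ZNF616 (104.0 and 29.9), AKAP1 (103.4 and 31.6), ZNF850 (86.6 and 18.8) and ZNF816 (80.7 and 23.3), so an H3K4me3 promoter peak and an H3K9me3 domain stood at the same gene. Of the 165 kept ZNF genes, 131 had an H3K4me3 promoter peak in the knockdown list, against 130 in the control list. In gained sequence the highest was CHCHD4, a mitochondrial import protein, with 130.6 in the knockdown and 35.03 in the control list. These folds describe peaks within each list and are not a measure of change.

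Lost genes with an H3K4me3 promoter peak in the knockdown list only were led by POU2AF3 (fold 12.6), ARHGAP20 (11.5), COBL (8.72), MAGEE2 (8.65), KCNH8 (8.12), CADPS (7.84), AVPR1A (7.23) and NTN1 (6.73). POU2AF3 and ARHGAP20 lay together in a 966 kb control domain of chromosome 11 that was lost whole, and COBL, an actin nucleator, in the lost chromosome 7 stretch with ABCA13. KCNH8 is a potassium channel, CADPS acts in vesicle release and NTN1 encodes the guidance protein netrin. PTGER3 and TMEM100 had a peak in the control list only, with folds of 3.15 and 3.09. Kept genes with a knockdown-only H3K4me3 peak were led by FSTL4 (12.1), PPP1R14C (10.3), SORL1 (10.1), CYRIA (9.15) and CMPK2 (7.84), followed by MYCN (6.41), FGFR2 (6.22) and ZNF423 (5.67), and KLHL3 had a control-only peak (2.93). Gained genes were led by ASCL2 (11.3), RTL6 (11.3), TP53I11 (10.0) and WIZ (8.83). For H3K27ac the highest knockdown-only fold in lost sequence was that of ZNF530, 10.0, in the ZNF domain of chromosome 19 that was kept over 50.6%.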

How the data were processed

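The submitters' processing notes name the build hg38 and the tools MACS2 2.2.7.1, deepTools, BWA 0.7.12-r1039 and Picard 1.104, without saying what each did. The deposited domain lists give 1 score per domain with no stated unit; their file names carry the name EDD, and nothing else names the caller. The deposited peak lists follow the MACS2 layout, with a fold enrichment (a ratio) and a -log10 q-value for each peak. Peak names in the deposited lists say that replicates 1 and 2 were called together; for the domain lists the sources used here do not say. Peak lists marked ct were taken as control and those marked pml as PML knockdown, which is an assumption. Domain bounds lie on grids of 35 kb (knockdown) and 23 kb (control), and 2 knockdown domains end up to 13 kb past a chromosome end.

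Chromosomes 1 to 22 and X were divided into bins of 1 kb, assembly gaps of at least 10 kb were left out, and each bin was classed by the lists. The 19970 protein-coding genes came from GENCODE release 44 and were placed by the start of the canonical transcript; a promoter was that start with 1 kb on either side. Peaks sharing 1 bp were counted as overlapping. Regional GC is the mean over 500 kb. A run of lost or gained sequence was whole, edge or inner by whether it covered a domain, touched its outer bound or lay inside. With 1 list per condition there are no p-values or errors, and precision could not be derived from depth. The members and gene lists were chosen with earlier results of these data known. Named genes were up to 4 of the longest stretches and up to 6 members of each list per class. They also included the 5 highest H3K4me3 promoter folds per class and up to 8 promoters per class counted as having a peak in 1 list only. Further members of some clusters were named after their classes were seen. Alternatives were longer or joined domains, autosomes, the highest-scoring control domains down to the knockdown length, 100 kb tiles and stricter or equal-sized peak lists. The code was tested on simulated lists with known overlap. Input libraries and those of H3K27me3 were not analysed here. A few genes that fell under the naming rule are not reported here. The software was scipy 1.17.1, pandas 2.3.3, numpy 2.4.6 and matplotlib 3.10.9 under Python 3.11.15.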

Additional observations from a re-analysis of the deposited data

How the results depend on the processing

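The kept share of control length, 44.6%, was 44.5% with domains of at least 500 kb, 44.7% with domains within 100 kb joined, 44.9% on autosomes only and 44.8% in 100 kb tiles. With the 137 control domains of highest score, whose 360 Mb match the knockdown length, it was 50.7%, and 36 of the 137 were lost whole. The gained share of knockdown length, 22.3%, was 22.9% with domains of at least 500 kb, 21.5% on autosomes and 22.4% in tiles. The share of lost length in whole domains, 79.9%, was 80.1% with domains of at least 500 kb. With the highest-scoring control domains, 301 genes in place of 959 started in lost sequence and 1177 in place of 680 in gained sequence, because fewer control domains enter. Knockdown minus control peaks per Mb for H3K4me3 with a -log10 q of at least 5 and with equal numbers of peaks were 0.926 and 0.224 in kept (1.23 as reported), 0.445 and -0.0460 in lost (0.555) and 3.66 and 1.14 in gained sequence (5.10). For H3K27ac they were 0.777 and 0.652 in kept (0.852), 0.256 and -0.0546 in lost (0.0977) and 2.57 and 2.03 in gained sequence (2.68). The cause of these changes was not tested. No paired analysis was possible because the lists hold no value per replicate, and for the same reason no replicate could be left out. Read depth is unknown.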
